A study of Mus musculus with 15 samples.

Results

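Extracellular metalloproteinases are zinc enzymes that cut matrix proteins and shed proteins from the cell surface, and 10 mouse genes of this group were examined, of 24421 gene symbols in each table. They are 4 matrix metalloproteinases (Mmp13, Mmp14, Mmp15 and Mmp7), the ADAMTS enzymes Adamts1 and Adamts9, the cell-surface sheddase Adam17, and the inhibitors Timp1, Timp2 and Timp3. Members were found by symbol. The members were chosen by someone who knew the folds and adjusted p-values of these same tables, so those values describe the members here and support nothing further. Adam17 belongs to neither the Mmp nor the Adamts family, and Mmp14 and Mmp15 are anchored in the membrane rather than secreted.

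The cells are a cell line grown from adult mouse bile ducts, that is, of the epithelium lining them, of strain C57BL/6 with the genotype ITR-CreERT2;Klf5flox/flox. All groups share this genotype: at 12 h there were 3 libraries with ethanol and 4 with 4-OH tamoxifen, and at 24 h 4 with each. Tamoxifen activates the CreERT2 recombinase, which deletes the floxed Klf5 gene, a Krüppel-like transcription factor; ethanol is the solvent. Drug exposure, recombinase activity and loss of Klf5 come together in the tamoxifen groups, and the labels name no tamoxifen group without floxed alleles, so these cannot be told apart. All samples are of 1 line, and the labels do not say what drives CreERT2. Nor do they say that replicates came from different cultures, and the p-values then cover only library-to-library spread, possibly technical. The title names 3D structures in vitro and the design text structures in vivo. The files used here compare the 2 treatments within each time and hold no value per library, so each gene has 1 mean, 1 fold and 1 standard error (SE) per time.

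Matrix metalloproteinases are made as inactive precursors and are blocked by tissue inhibitors, the Timp proteins, which bind the active site. Mmp14 is the textbook activator of pro-Mmp2 at the cell surface, where Timp2 bridges the enzymes, and it also activates pro-Mmp13, a collagenase. Adamts1 and Adamts9 cut the proteoglycan versican, Adam17 releases EGF receptor ligands and tumour necrosis factor, and Timp3 is the inhibitor that also reaches Adam17 and ADAMTS enzymes. Mmp7, or matrilysin, is known from injured bile duct epithelium.

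The targeted gene fell at both times. In the authors' deposited table Klf5 stood at -1.29 (SE 0.23) at 12 h and at -1.72 (SE 0.08) at 24 h, log2 of tamoxifen over ethanol; that direction was checked on the values at 12 h and is assumed at 24 h. These values include any reads from Klf5 exons that the deletion leaves in place. The means over all genes sum to 13.9 M normalised counts per library at 12 h and 11.8 M at 24 h. Biliary markers were present: 7 of 8 had a mean above 0 at each time, with Krt19 at 23752 and 6700 normalised counts and Sox9 at 742.0 and 767.2, but Epcam at 15.7 and 9.56. Of 9 fibroblast and stellate markers, 6 were listed at 0 at 12 h and 5 at 24 h (Col1a2, Col3a1, Dcn and Lum at both), and the sum of the list was 30.6 and 11.7 normalised counts. The 4 endothelial markers summed to 1.75 and 1.84. The immune list summed to 81.1 and 77.4, of which the lysosomal protein gene Cd68 made up 76.4 and 76.1, and Adgre1 and Cd3e were at 0. The hepatocyte list was not near 0: it summed to 1992 and 722.9, with Apoa1 at 1291 and 447.8 and Ttr at 684.5 and 266.6, while Alb was at 3.68 and 1.48. None of the fibroblast, endothelial, immune or hepatocyte markers was called at either time by the authors' Wald test, with 0 at an unadjusted p under 0.05. Msln, in the mesothelial list, was called and lower at both times, while Wt1 and Upk3b of that list had means of 0.256 or less. In bulk RNA a smaller number of cells of a type and less RNA per cell cannot be told apart.

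Promoters of called members are shown first, since the floxed gene encodes a factor that binds GC-rich and CACCC sequences. All 10 members have RefSeq promoter entries on GRCm38.p6, 11 in all, and the 250 bases before each annotated start were searched on both strands for the AP-1 motif TGANTCA, the CACCC box CACCC, the GC box GGGCGG and the TATA box TATAAA. No match of one motif is also a match of another. Among all 32851 promoters of this length, 6.75% held the AP-1 motif, 52.0% a CACCC box, 32.7% a GC box and 12.4% a TATA box. Of the 4 members called at either time, the windows of Mmp13 (chr9:7272264-7272513, forward strand), Adamts9 (chr6:92943535-92943784, reverse strand) and Mmp14 (chr14:54431348-54431597, forward strand) are printed because they hold no annotated exon of their gene; that of Timp2 overlaps its first exon in GENCODE. Capitals mark the motifs.
Mmp13: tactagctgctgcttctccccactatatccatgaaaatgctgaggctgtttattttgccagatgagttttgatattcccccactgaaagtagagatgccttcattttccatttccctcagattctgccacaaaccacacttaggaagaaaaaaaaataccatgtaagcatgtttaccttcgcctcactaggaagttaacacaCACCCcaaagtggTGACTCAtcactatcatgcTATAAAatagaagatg
Adamts9: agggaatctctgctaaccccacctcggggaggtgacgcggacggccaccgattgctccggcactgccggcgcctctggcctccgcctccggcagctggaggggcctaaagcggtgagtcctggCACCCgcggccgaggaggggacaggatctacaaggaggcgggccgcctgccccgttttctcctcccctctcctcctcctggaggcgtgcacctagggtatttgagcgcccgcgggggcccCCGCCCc
Mmp14: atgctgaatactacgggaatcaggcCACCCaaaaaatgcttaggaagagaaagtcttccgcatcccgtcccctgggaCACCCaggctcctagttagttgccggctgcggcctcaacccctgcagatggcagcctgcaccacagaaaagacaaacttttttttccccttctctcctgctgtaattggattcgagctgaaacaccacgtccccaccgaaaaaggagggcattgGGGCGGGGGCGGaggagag
Mmp13 carries a TATA box from 16 to 11 bases before the start, an AP-1 motif, TGACTCA, from 35 to 29 bases before it, and a CACCC box from 48 to 44. Its window holds no GC box and is 40.4% G and C. Adamts9 (71.2% G and C) holds a CACCC box and a GC box, and Mmp14 (55.2%) a pair of adjacent GC boxes from 19 to 8 bases before the start and 2 CACCC boxes. Mmp7 is the other member with an AP-1 motif, TGAGTCA, from 63 to 57 bases before its first listed start. These matches are letters in a window and show no binding.

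Mmp13, the collagenase, fell at both times. Its mean was 182.3 normalised counts at 12 h and 713.3 at 24 h in the authors' deposited table. From this mean, the group sizes and the fold, the implied level was 267.0 in ethanol and 118.8 in tamoxifen at 12 h, and 1017 in ethanol and 409.6 in tamoxifen at 24 h. Tamoxifen thus lay at 44.5% and 40.3% of ethanol. The authors' deposited table gives Mmp13 a log2 fold of -1.17 (SE 0.32, 95% interval -1.79 to -0.55, adjusted p = 0.0295) at 12 h. At 24 h the same column of the authors' deposited table holds -1.31 (SE 0.12, 95% interval -1.54 to -1.08, adjusted p = 4.90e-26). Its SE was 1.63 times at 12 h and 1.74 times at 24 h the running median of genes of similar mean. By size, Mmp13 ranked 21 of 90 called falls with a mean of at least 50 at 12 h and 17 of 725 at 24 h in the authors' deposited table.

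**Figure D1:**
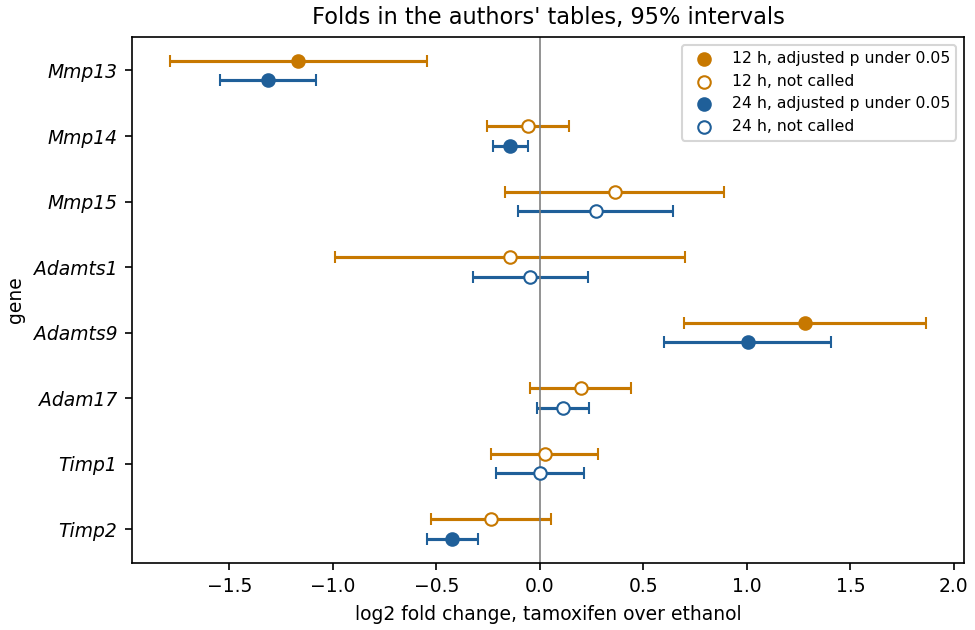
Log2 fold of tamoxifen over ethanol (x axis) for the 8 members with an adjusted p (y axis), at 12 h and 24 h; bars are 95% intervals and filled points have an adjusted p under 0.05. Mmp13 lies near -1.2 and -1.3, Adamts9 at 1.28 and 1.004, and the intervals at 24 h are narrower for every gene drawn.

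Mmp14, the membrane-type collagenase, is the most abundant metalloproteinase of the group. Its mean was 5691 normalised counts at 12 h and 4297 at 24 h in the authors' deposited table. The implied levels were 5821 in ethanol and 5593 in tamoxifen at 12 h, and 4509 and 4085 at 24 h, so tamoxifen was at 96.1% and 90.6% of ethanol. Mmp14 fell at 24 h by 0.14 on the log2 scale (SE 0.04, 95% interval -0.23 to -0.06, adjusted p = 0.0152 in the authors' Wald test, from the authors' deposited table). At 12 h the authors' deposited table has -0.06 (SE 0.10, adjusted p = 0.999), an interval of -0.26 to 0.14 that holds the 24 h value. Pro-Mmp2, which Mmp14 activates, has almost no transcript here: the authors' deposited table lists Mmp2 at a mean of 0.137 at 12 h, about 1 read over 7 libraries, and at 0 at 24 h.

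The remaining matrix metalloproteinases did not pass the threshold. Mmp15, a second membrane-type enzyme, had implied levels of 203.6 in ethanol and 261.5 in tamoxifen at 12 h, and 55.7 and 67.2 at 24 h. Its log2 folds in the authors' deposited table were 0.36 (SE 0.27, 95% interval -0.17 to 0.89) and 0.27 (SE 0.19, 95% interval -0.10 to 0.64). Tamoxifen was the higher group at both times, but both intervals include 0. Mmp7 summed to 1.99 normalised reads over 7 libraries at 12 h and 2.07 over 8 at 24 h, under the floor of 3 reads, so no fold is given. Matrilysin was not detectable above that floor at this depth.

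Adamts9 rose at both times and was the opposite of Mmp13 in direction. Its mean was 90.7 normalised counts at 12 h and 75.9 at 24 h in the authors' deposited table. The implied levels were 49.9 in ethanol and 121.3 in tamoxifen at 12 h, and 50.5 and 101.3 at 24 h. The authors' deposited table holds a log2 fold of 1.28 (SE 0.30, 95% interval 0.70 to 1.87, adjusted p = 0.00339) at 12 h for Adamts9. At 24 h the authors' deposited table holds 1.004 (SE 0.21, 95% interval 0.60 to 1.41, adjusted p = 3.92e-05). By size it ranked 1 of 23 called rises with a mean of at least 50 at 12 h and 9 of 648 at 24 h. An unstranded kit was used and 9.18% of the exon bases of Adamts9 are shared with A730049H05Rik on the opposite strand. Reads of this stretch cannot be told apart by strand. A730049H05Rik is not among the gene symbols listed, so such reads may have been counted to Adamts9, and how they were counted is not given. Adamts1, the related versican-cleaving enzyme, had implied levels of 45.5 in ethanol and 41.1 in tamoxifen at 12 h and 150.3 and 145.6 at 24 h. Its log2 folds in the authors' deposited table were -0.14 (SE 0.43) and -0.05 (SE 0.14, 95% interval -0.32 to 0.23), neither called.

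Adam17 and the inhibitors followed. For Adam17, the implied levels were 843.4 in ethanol and 966.1 in tamoxifen at 12 h, and 820.3 and 886.2 at 24 h. Its log2 fold in the authors' deposited table was 0.20 (SE 0.13, adjusted p = 0.999) at 12 h and 0.11 (SE 0.06, 95% interval -0.01 to 0.24, adjusted p = 0.279) at 24 h. Of its exon bases 4.35% lie on those of Iah1 on the opposite strand. Timp2, the inhibitor that also helps Mmp14 activate pro-Mmp2, fell at 24 h. Its mean was 7652 normalised counts at 12 h and 5529 at 24 h in the authors' deposited table. The implied levels were 8376 in ethanol and 7109 in tamoxifen at 12 h, and 6335 and 4724 at 24 h, or 84.9% and 74.6% of ethanol. The authors' deposited table gives Timp2 -0.24 (SE 0.15, 95% interval -0.53 to 0.05, adjusted p = 0.999) at 12 h and -0.42 (SE 0.06, 95% interval -0.55 to -0.30, adjusted p = 1.53e-09) at 24 h. Its 12 h interval holds the 24 h value.

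Timp1, the secreted inhibitor whose gene lies in an intron of Syn1 on the opposite strand, had close values in both groups: implied levels were 526.4 in ethanol and 534.6 in tamoxifen at 12 h, and 298.6 and 298.7 at 24 h. Its log2 folds in the authors' deposited table were 0.02 (SE 0.13, 95% interval -0.24 to 0.28) and 0.00047 (SE 0.11, 95% interval -0.21 to 0.21). Timp3, which inhibits Adam17 and ADAMTS enzymes, summed to 3.05 normalised reads over 7 libraries at 12 h and 3.90 over 8 at 24 h, so each group is near or under 3 reads and no fold is given. It shares 21.3% of its exon bases with Syn3 on the opposite strand. Of these 10 genes, 1 rose and 1 fell at 12 h among the 8 with an adjusted p, and 1 rose and 3 fell at 24 h, in the authors' deposited table; over all genes tested, 0.943% were called at 12 h and 12.4% at 24 h (0.728% lower and 0.215% higher at 12 h; 6.52% lower and 5.90% higher at 24 h). The rule used these contrasts, so nothing is read from these counts. The median log2 fold of the 8 was -0.02 at both times, beside -0.01 at 12 h and -0.00040 at 24 h for all genes tested.

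**Figure D2:**
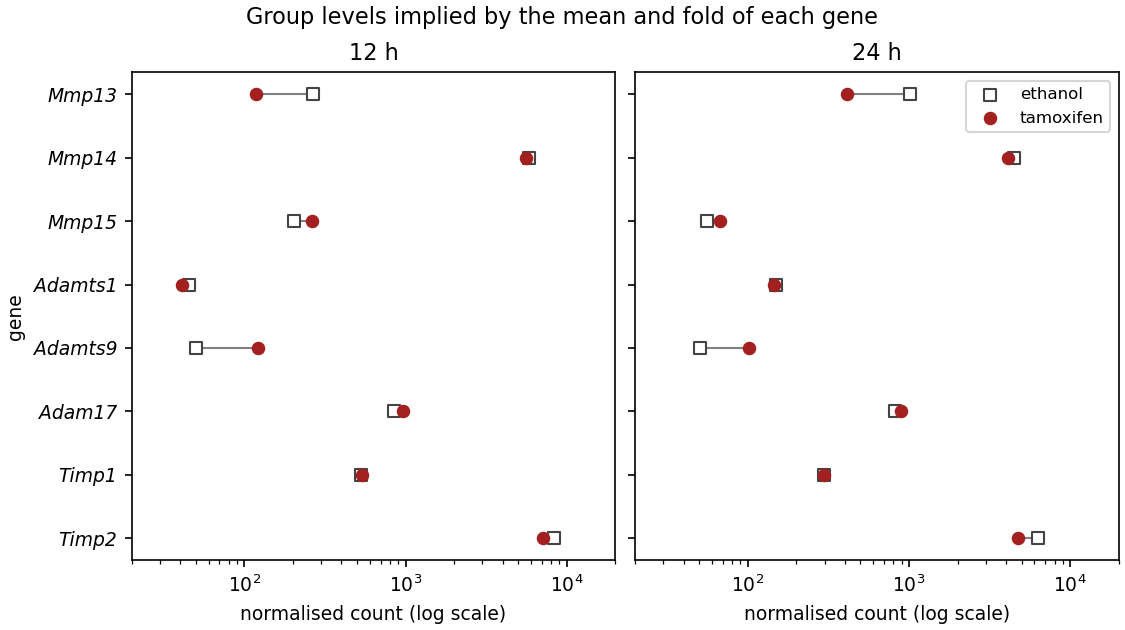
Ethanol (open squares) and tamoxifen (filled circles) levels in normalised counts (x axis, log scale) implied by each gene's mean, group sizes and fold, at 12 h and 24 h; no value per library exists in the files used, so no error is drawn. Mmp13 is lower in tamoxifen at both times, Adamts9 is higher, and Timp2 is lower, with 6335 against 4724 at 24 h.

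To find whether the response differed between times, the difference of folds at 24 h and 12 h was tested for every gene with a p-value at both times. None of the 8 members with an adjusted p passed the threshold, with unadjusted p from 0.248 for Timp2 to 0.898 for Timp1 in this Wald test; over all 14981 genes tested, 0.0134% were called. All 8 had the same sign at both times. The members were chosen with these folds known, and those of Timp1 and Adamts1 lay within their SE of 0, so nothing is read from this. The difference was -0.14 for Mmp13 (SE 0.34, 95% interval -0.81 to 0.52), -0.28 for Adamts9 (SE 0.36, 95% interval -0.99 to 0.43), -0.19 for Timp2 (SE 0.16, 95% interval -0.50 to 0.13) and -0.08 for Mmp14 (SE 0.11, 95% interval -0.30 to 0.13). The intervals of Mmp13 and Adamts9 are the wider ones, so sizable differences between times in these genes would not have been detectable. Among members, the SE at 12 h was 1.22 to 3.04 times that at 24 h, and over 9861 genes with a mean of at least 50 at both times the median ratio was 1.94.

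Levels of several members differed between times, in a way no error covers. The tables were normalised separately and no library is shared, so the mean per M normalised counts is given as a value only. Mmp13 went from 13.1 to 60.2 per M, a log2 ratio of 2.20, and Adamts1 from 3.10 to 12.5, a log2 ratio of 2.01. Mmp15 went the other way, from 17.0 to 5.19, a log2 ratio of -1.72. The 5th to 95th percentiles of this ratio over the 9861 genes were -1.21 and 1.13, with a median of -0.05. Adamts9 (-0.03), Adam17 (0.13), Mmp14 (-0.18) and Timp2 (-0.24) stayed close to that median.

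The whole families were then described, from every symbol that begins with Mmp, Adamts, Adamtsl, Adam or Timp followed by a number: 84 genes, of which 30 had 0 counts at 12 h and 34 at 24 h. A count of 0 over all libraries allows a mean of up to 0.429 normalised counts at 12 h and 0.375 at 24 h (3 reads; counting error only). Per kb of exon, levels over both times were highest for Timp2, at 1692 normalised counts per kb, and Mmp14 (837.9), followed by Adam9, an adamalysin sheddase (712.2), and Timp1 (467.2). Adam10, which sheds Notch and cadherins, was at 402.9, Adam15 at 331.5, and Mmp11, or stromelysin-3, at 200.1, ahead of Mmp13 (167.5) and Adam17 (123.5). Adamtsl4, an ADAMTS-like protein without a protease domain, was at 74.5 and Adam8 at 63.0. Adamts9 was the 24th of the families at 5.54. Among the Timp genes, Timp2 held 76.7% of the summed level per kb at 12 h and 80.8% at 24 h, and Timp1 held nearly all the rest (23.3% and 19.2%). Mmp14 held 70.7% of the Mmp level at 12 h and 56.3% at 24 h, when Mmp13 held 20.9%.

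Of the 74 family genes that are not members, 28 at 12 h and 20 at 24 h had an adjusted p. None was called at 12 h by the authors' Wald test, against 0.943% of all genes. At that time 7 had an unadjusted p under 0.05 (2 higher and 5 lower), a looser threshold for which no share of all genes is given. At 24 h 3 fell, none rose and 17 did not pass, so 15.0% were called, beside 12.4% of all genes. In the authors' deposited table the falls were those of Adam9 at -0.18 (SE 0.04, adjusted p = 0.000496), Adam15 at -0.18 (SE 0.06, adjusted p = 0.0270) and Mmp28, the epilysin gene, at -0.36 (SE 0.12, adjusted p = 0.0314). At 12 h the authors' deposited table has Mmp28 at -1.13 (SE 0.43, unadjusted p = 0.00948, adjusted p = 0.391), uncalled, and Adam9 and Adam15 at 0.03 (SE 0.13) and -0.21 (SE 0.10). The difference between times for Mmp28 was 0.77 (SE 0.45, 95% interval -0.12 to 1.65) and did not pass the threshold. Adam15 shares 20.6% of its exon bases with 4731419I09Rik and Mmp28 12.0% with 1700020L24Rik, both on the opposite strand. Of these partners, 4731419I09Rik is not among the gene symbols listed. The abundant Adam10 and Mmp11 were not called: the authors' deposited table has 0.03 (SE 0.06) and 0.11 (SE 0.07) at 24 h. Nor were Adamtsl4 at -0.47 (SE 0.27) and Adam8 at -0.46 (SE 0.31) at 24 h in the authors' deposited table. By family, at 24 h the Mmp genes counted 3 falls and 0 rises of 8 with an adjusted p, the Adam genes 2 falls and 0 rises of 9, the Adamts genes 1 rise and 0 falls of 7, the Adamtsl genes 0 of 2 and the Timp genes 1 fall of 2; these counts include the members. The median log2 fold of all 28 family genes with an adjusted p was 0.04 at 24 h, beside -0.00040 for all genes tested.

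**Figure D3:**
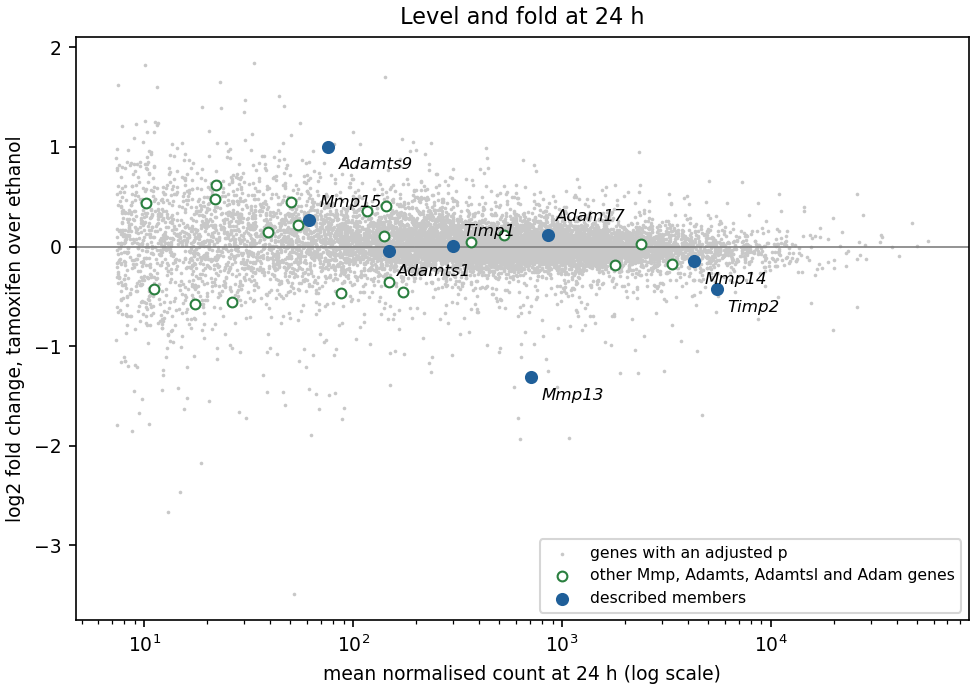
Mean normalised count at 24 h (x axis, log scale) against the log2 fold of tamoxifen over ethanol (y axis) for every gene with an adjusted p (grey), with other Mmp, Adamts, Adamtsl and Adam genes in green and the described members in blue. Mmp13 lies at -1.31 and Adamts9 at 1.004, while Timp2 (-0.42) and Mmp14 (-0.14) are members of much higher level.

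Mmp13 lies at one end of a cluster of matrix metalloproteinase genes on chromosome 9 (GRCm38, 7272514 to 7699585), and Mmp7 at the other. All 9 protein-coding genes annotated across these 427.1 kb by GENCODE are Mmp genes: Mmp13, Mmp12, Mmp1b, Mmp3, Mmp10, Mmp8, Mmp27, Mmp20 and Mmp7, in that order; Mmp1a, listed at 0, is annotated there as a polymorphic pseudogene. Mmp13 provided 89.1% of their summed normalised count at 12 h and 99.6% at 24 h. Mmp10, stromelysin-2, came next with a mean of 21.3 at 12 h and 2.26 at 24 h, where it had no adjusted p. The other 7 had a mean of 0.507 or less at both times. Positions of the remaining genes on GRCm38 are as follows. Mmp14 lies on chromosome 14 from 54431612 to 54445364 (forward strand) and Mmp15 on chromosome 8 from 95352268 to 95375080 (forward strand). Adamts9 spans chromosome 6 from 92772699 to 92943492 (reverse strand) and Adamts1 chromosome 16 from 85793827 to 85803113 (reverse strand). Adam17 is on chromosome 12 from 21323509 to 21373632 (reverse strand), Timp1 on chromosome X from 20870166 to 20874735 (forward strand), Timp2 on chromosome 11 from 118301069 to 118355740 (reverse strand) and Timp3 on chromosome 10 from 86300372 to 86349506 (forward strand).

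Genes around the proteases were counted from fixed lists. Activators and inhibitors of the enzymes numbered 27 in the table, 18 with an adjusted p at each time. Of these, 1 rose and 2 fell at 12 h, and 4 rose and 2 fell at 24 h, in the authors' deposited table. The share called was 16.7% and 33.3%, beside 0.943% and 12.4% of all genes. The median log2 fold was -0.02 and -0.01, beside -0.01 and -0.00040 over all genes tested. The lists were chosen with earlier results of these data known, so their shares are values only. In the authors' deposited table Plaur, the urokinase receptor, fell by 1.10 (SE 0.24) at 12 h and by 1.24 (SE 0.08) at 24 h. Its SE was 1.83 and 1.70 times the running median of genes of similar mean. Sparc, a matricellular protein, rose by 0.49 (SE 0.07) at 24 h in the authors' deposited table. Plat, the tissue plasminogen activator, fell by 0.52 (SE 0.10) at 12 h in the authors' deposited table. At 24 h Plat stood at -0.18 (SE 0.12) there and was not called, with an SE 2.14 times the running median.

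Adam17 partners and substrates numbered 32, of which 27 had an adjusted p at 12 h and 26 at 24 h. Of these, 1 fell and none rose at 12 h, and 5 fell and 2 rose at 24 h. That is 3.70% and 26.9% called, beside 0.943% and 12.4% of all genes. Over all genes at 24 h, 6.52% were lower and 5.90% higher. The median log2 fold was -0.01 and 0.02, beside -0.01 and -0.00040 over all genes tested. Sdc1, the syndecan-1 proteoglycan, fell by 0.38 (SE 0.10) at 12 h and by 0.48 (SE 0.04) at 24 h in the authors' deposited table. At 24 h the EGF receptor ligand gene Ereg fell by 0.43 (SE 0.10), with an SE 1.94 times that of similar genes, and Il6ra, an interleukin-6 receptor chain, by 0.62 (SE 0.16) in the authors' deposited table. Nrp1, a neuropilin, rose by 0.49 (SE 0.07) at 24 h in the authors' deposited table.

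Genes listed as matrix proteins that these enzymes can cut moved both ways at 24 h. The list also holds Has2, a hyaluronan synthase gene. Of 37 in the table, 25 had an adjusted p at 12 h, of which 2 fell and none rose, and 21 at 24 h, of which 6 rose, 6 fell and 9 did not pass, in the authors' deposited table. The share called was 8% at 12 h, beside 0.943% of all genes, and 57.1% at 24 h, beside 12.4%. At 24 h the median log2 fold was 0.15, beside -0.00040 for all genes tested. Vcan, the versican that Adamts1 and Adamts9 cut, fell at 24 h by 0.79 (SE 0.11) and stood at -0.0013 (SE 0.27) at 12 h in the authors' deposited table. Its SE was 1.82 times the running median of genes of similar mean at 12 h and 1.90 times at 24 h. Fn1 (fibronectin) rose by 0.53 (SE 0.05) and Col18a1 by 0.64 (SE 0.08) at 24 h in the authors' deposited table. The SE of Col18a1 was then 1.61 times that median. The list holds genes named in earlier results of these data.

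AP-1 and ETS factors are known to act on metalloproteinase promoters. Their list, which also holds Runx1 and Runx2 of neither family, numbered 20, with 19 tested at 12 h and 18 at 24 h. None was called at 12 h by the authors' Wald test, with 2 at an unadjusted p under 0.05, both lower. Over all genes 0.943% were called at that time. At 24 h 4 rose and 2 fell, so 33.3% were called, beside 12.4% of all genes. Median log2 folds were 0.05 and -0.03, beside -0.01 and -0.00040 over all genes tested. Etv5 rose by 0.52 (SE 0.11) and Elk3 by 0.32 (SE 0.07) at 24 h in the authors' deposited table. In the authors' deposited table Fosb fell by 0.70 (SE 0.18) and Atf3 by 0.33 (SE 0.08) at 24 h, with SEs that were 2.99 and 1.72 times the running median. At 12 h the authors' deposited table has them at -1.07 (SE 0.58) and -0.75 (SE 1.28), uncalled, with SEs 3.88 and 9.19 times that median.

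Genes whose pair of folds lay nearest to a member's were found among 86 genes called at both times with a mean of at least 50 at both, by Euclidean distance over the pair; 0.826% of the 11624 genes with an adjusted p at both times were called in the same direction at both. Nearest to Mmp13 was Plaur at a distance of 0.0943, then the adhesion receptor gene Adgrl3 (0.128) and the junction protein gene Jam2 (0.190). The authors' deposited table lists Adgrl3 at -1.07 (SE 0.26) and -1.39 (SE 0.15), and Jam2 at -1.33 (SE 0.26) and -1.21 (SE 0.24), at 12 h and 24 h. Among the nearest to Adamts9 were Pdk4 (0.475), a kinase that restrains pyruvate dehydrogenase, and Stra6 (0.570), a retinol transporter. Pdk4 is listed in the authors' deposited table at 0.92 (SE 0.19) and 0.69 (SE 0.15), and Stra6 at 0.71 (SE 0.19) and 0.97 (SE 0.32). A distance over 2 values that carry these SEs describes the values alone.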

How the data were processed

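Total RNA of the biliary line was sequenced from one end; per the labels' protocols the kit was TruSeq RNA v2, an unstranded design. The submitters' processing notes name HISAT2, mm10 and DESeq2, with no versions or roles; what counted the reads, with which annotation and model formula, is not given in the sources used here. Ethanol replicate 2 at 12 h is not analysed here. Per the file headers, the authors' tables hold for each gene a mean normalised count, a signal with no error. They also hold, per the file headers, a log2 fold and its SE; the headers do not name the direction. At 12 h the 776 genes with 1 read have 7 distinct means, 1 per library, of which 3 carry negative and 4 positive folds, which matches tamoxifen over ethanol. At 24 h the split is 4 and 4 and cannot show it, so the same direction was assumed; Klf5 has a negative fold at both times. The Wald score, the p-value and the Benjamini-Hochberg adjusted p-value are deposited beside them. Adjusted p-values are blank for genes of low mean, so 2 members have none.

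Groups were read from sample titles. Genes were called at a deposited adjusted p under 0.05. Intervals (95%) are 1.96 SE on each side. Implied group levels take the fold as the ratio of group means. Running medians of the SE cover 201 genes. Exon lengths are GENCODE M21 unions on GRCm38, the assembly of mm10. The difference between times was the difference of log2 folds divided by its SE (the 2 squared SEs added, then the root). Its p was two-sided, with Benjamini-Hochberg adjustment over all genes with a p at both times. The calculation was run on simulated data whose errors were drawn from these same SEs, so that run checks the calculation only. Members and lists were chosen with earlier results of these data known. Genes named from a list are its up to 4 called members of smallest p, and from the families those called or among the 6 of highest level per kb. Patterns alike are the 3 nearest genes per member called at both times. Some genes that these rules select are not reported here. Calculations used Python 3.11.15 with pandas 2.3.3, numpy 2.4.6 and scipy 1.17.1, and plots matplotlib 3.10.9.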

Additional observations from a re-analysis of the deposited data

How the results depend on the processing

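The 8 members with an adjusted p kept their side of the threshold in all 32 alternative values. These had p adjusted over all genes with a p-value or folds centred on the median gene. The adjusted p of Mmp13 at 12 h in the Wald test was then 0.0355 and 0.0318. Readjustment cannot change a fold, and centring moved the folds little (Mmp13 at 12 h from -1.17 to -1.16), so neither setting tests their direction. Family counts moved with the threshold. At 0.01 the count of falls was 0 at 12 h, where Mmp13 dropped out, and 3 at 24 h, Timp2, Adam9 and Mmp13, so the falls of Mmp14, Adam15 and Mmp28 rest on the threshold of 0.05. At 0.1 the falls at 12 h numbered 3, with Adamtsl4 and Adamts15 beside Mmp13, and the rises at 24 h 3, with Adam23 and Mmp19 beside Adamts9; Adamts15, Adam23 and Mmp19 were named after their values were seen. A minimum mean of 50, the wider adjustment and centring left every family count unchanged. The difference between times had 0 called family genes of 48 under the main and all 3 other settings, with 0 at an unadjusted p under 0.05. No paired analysis was possible because the tables hold no values per library, and for the same reason leaving out each replicate was not run. Depth limits Mmp7 and Timp3, at 2 to 4 reads over all libraries.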

Other observations

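Other zinc metalloproteases, outside the Mmp, Adam and Adamts families, numbered 25 in the table. At 12 h none of the 16 with an adjusted p was called by the authors' Wald test, beside 0.943% of all genes. An unadjusted p under 0.05 was held by 2 of the list at that time. At 24 h 4 of 14 rose and 1 fell, so 35.7% were called, beside 12.4% of all genes (5.90% higher and 6.52% lower). The median log2 fold at 24 h was 0.06, beside -0.00040 for all genes tested. Erap1, which trims peptides for antigen presentation, rose by 0.30 (SE 0.06) at 24 h in the authors' deposited table. Bmp1, the procollagen C-proteinase, rose by 0.27 (SE 0.08), with an SE 1.62 times that of genes of similar mean, in the authors' deposited table. Ace, the angiotensin-converting enzyme, rose by 1.47 (SE 0.33) from a mean of 30.3 normalised counts, and Thop1, a peptidase of the cytosol, fell by 0.22 (SE 0.07), in the authors' deposited table.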
